A study of Mus musculus with 6 samples.

Results

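The genes described here encode the proteins of the cytosolic ribosome in mouse bone marrow-derived macrophages (BMDMs) that had been cultured together with ovarian cancer cells. They were chosen by symbol: protein-coding genes named Rpl or Rps with a number, together with Rplp0, Rplp1, Rplp2 and Rpsa, and without the 10 Rps6k kinases. The rule found 86 of the 54532 genes of the deposited table. They comprised 46 genes of the large subunit, 31 of the small subunit, 8 paralogs (Rpl22l1, Rps27l, Rps27rt, Rpl3l, Rpl7l1, Rpl10l, Rpl36al and Rpl39l) and Rps19bp1, which carries a ribosomal protein's name as its binding partner and is no part of the ribosome. The rule reads symbols and biotypes and no measured value.

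Each ribosome is built from ribosomal RNA and a single copy of nearly every ribosomal protein, so cells as a rule make these proteins together. Their messenger RNAs are among the most abundant in growing cells and carry a run of pyrimidines at the 5′ end, the terminal oligopyrimidine (TOP) motif, through which mTORC1 and LARP1 control their translation. A few genes have paralogs that can take the place of the usual protein, and almost all have left processed copies elsewhere in the genome.

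RNA was sequenced from BMDMs grown in vitro beside ID8, an ovarian cancer line of the mouse. The cancer cells of the cisplatin group (n = 3) had first been exposed to cisplatin at 40 µM, which links DNA strands through platinum, and those of the control group (n = 3) to phosphate-buffered saline (PBS). The comparison asks how cancer cells exposed to the drug alter the macrophages beside them. The BMDMs came from C57BL/6 mice. The study's methods speak of biological replicates and of cell experiments done in triplicate, but do not say whether the 3 libraries of a group came from separate cultures or animals, so p-values measure the spread between these libraries only, and how the BMDMs were freed of ID8 cells before RNA was taken was not stated either.

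The libraries held 15776238 to 17924686 reads, recovered from FPKM (fragments per 1 kb of gene and 1000000 reads) and gene length. Genes of ID8 and mesothelial cells differed strongly between the groups. As scaled in the deposited FPKM, all 10 tested of 13 such genes were lower with cisplatin. The summed FPKM of the list was 248 to 270 with cisplatin, against 1334 to 1445 with PBS. Epcam, Krt7 and Igfbp5 were near 0 throughout and were not tested. All 11 tested of 12 macrophage and monocyte genes were higher with cisplatin (6 higher and 3 lower on the Y-linked scale described below), with summed FPKM of 4241 to 4397 against 1644 to 1656. The neutrophil list (8 of 8 genes higher; 8931 to 9181 against 4776 to 4942) and the lymphocyte list (6 of 6 tested higher; 440 to 452 against 194 to 201) moved the same way as deposited, with 6 higher and 1 lower and with 2 higher and 2 lower on the Y-linked scale, and the erythroid list summed to 71.9 to 76.2 against 64.6 to 68.3. Over all genes tested 32.9% were higher and 35.1% lower as deposited, and 3.71% and 82.6% on the Y-linked scale. Gm26917, a noncoding transcript whose sequence overlaps ribosomal DNA, stood at 514, 595 and 558 FPKM in the cisplatin libraries and at 44.8, 35.2 and 39.5 in the PBS libraries. CT010467.1, annotated as ribosomal RNA, differed less, with 68.9, 101 and 118 FPKM with cisplatin and 56.2, 36.8 and 62.8 with PBS. The part of the cell mixture and of ribosomal RNA in the differences below was not tested. In such bulk RNA, fewer cells of a type and less RNA per cell cannot be told apart.

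Some of these genes share their sequence with others, which bears on how well they can be measured. Rps27, a zinc-binding protein of the small subunit, has a paralog, Rps27l, and an intronless retrocopy, Rps27rt, which lies within Osbpl10 on chromosome 9. The windows below run from 30 bases before the start of transcription to 25 bases from it, on the strand of the gene (RefSeq, GRCm38.p6); capitals mark an unbroken run of C and T that begins with C at the start site. They lie at chr3:90213624-90213678 (minus strand) for Rps27, chr9:114982715-114982769 (minus) for Rps27rt, chr9:66946056-66946110 (plus) for Rps27l and chr11:114668550-114668604 (plus) for Rpl38, shown as another gene with such a run.
Rps27: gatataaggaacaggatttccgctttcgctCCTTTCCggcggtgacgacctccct
Rps27rt: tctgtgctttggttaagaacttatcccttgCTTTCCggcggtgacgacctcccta
Rps27l: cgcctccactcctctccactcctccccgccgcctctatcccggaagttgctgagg
Rpl38: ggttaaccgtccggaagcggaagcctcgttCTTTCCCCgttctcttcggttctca

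From its annotated start Rps27rt carries the sequence of the Rps27 transcript from its next base on, pyrimidine run included, with a different sequence before it. The coding sequences below (bases 1 to 90, GENCODE M21) show the same relation; capitals mark bases that differ from Rps27.
Rps27: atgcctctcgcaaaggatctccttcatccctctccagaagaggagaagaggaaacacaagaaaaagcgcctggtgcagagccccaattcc
Rps27rt: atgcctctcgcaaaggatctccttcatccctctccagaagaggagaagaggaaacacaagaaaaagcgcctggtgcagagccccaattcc
Rps27l: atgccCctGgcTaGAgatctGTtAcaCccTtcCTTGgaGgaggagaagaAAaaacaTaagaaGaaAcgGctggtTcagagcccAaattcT

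Over the whole 255 bases Rps27rt had 0 mismatches to Rps27, so short reads from the coding sequence cannot be assigned to one or the other. Rps27l had 60 mismatches in 253 aligned bases (76.3% identity), and its reads can be told apart.

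Of the 86 genes, 82 had at least 1 FPKM in at least 3 libraries and were tested; Rpl3l, Rpl10l, Rpl36al and Rpl39l were not. Ribosomal protein genes as a family were higher in the cisplatin libraries by a small amount, as scaled in the deposited FPKM. Of the 82 genes 47 rose (limma on log2(FPKM + 1), Benjamini-Hochberg adjusted p under 0.05), against a background of 32.9% of the 13441 genes tested, and 3 fell (Rpl22l1, Rpl5 and Rpl6), against 35.1%. Their median log2 fold change was 0.25, against -0.0011 over all genes tested, and 73 of 82 were positive. Scaled to 4 Y-linked genes (Uty, Kdm5d, Ddx3y and Eif2s3y), the family's direction turned, as did that of most genes: 0 rose (background 3.71%) and 72 fell, or 87.8% against a background of 82.6%, with a median of -0.72. As deposited, the 4 genes summed to 41.6 to 42.8 FPKM with cisplatin and 19.5 to 22.7 with PBS. Their log2 fold changes ran from 0.55 to 1.15, and after the scaling 1 was called higher and 1 lower. The study's methods do not give the sex of the mice that BMDMs came from, and what these genes stand for was not tested. That scale moved the median of all genes to -0.83, and the family lay 0.11 above it. The pseudocount of 1 damps this shift in genes with low values, so this distance and the shares lower on that scale also depend on level. Of all genes called, 48.4% were higher with cisplatin as deposited and 4.30% on the Y-linked scale. Few of the changes were large: 2 genes rose at least 2-fold (Rps29 and Rps27a; background 4.67%) and 0 fell as far (background 11.3%). All 3 cisplatin libraries lay above all 3 PBS libraries in 48 of the 82 (background 35.2%) and below them in 4 (background 37.2%).

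**Figure D1:**
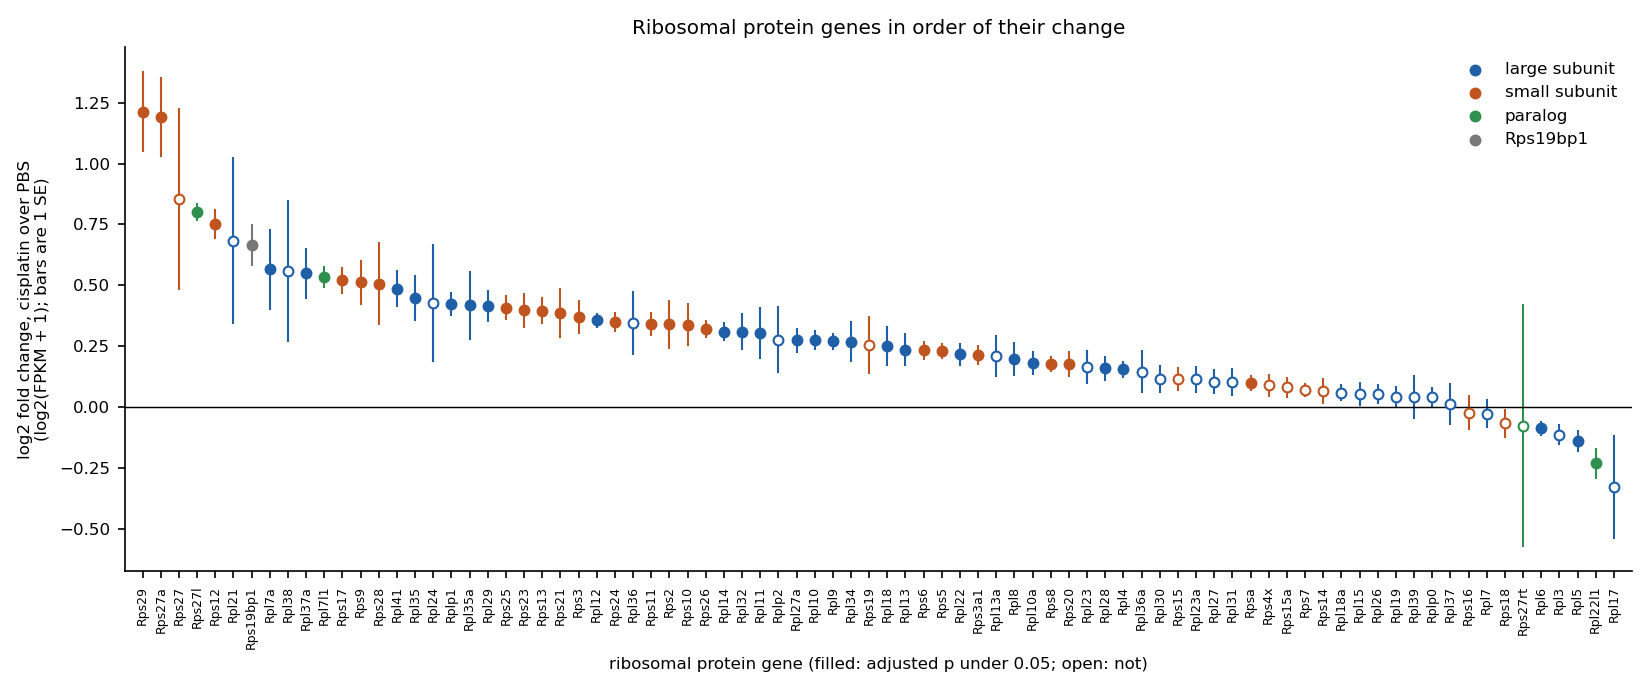
Log2 fold change (cisplatin over PBS, on log2(FPKM + 1), bars 1 SE) of the 82 tested genes, in order. Filled points passed an adjusted p of 0.05: 47 above 0 and 3 below it on this scale, whereas 0 rose and 72 fell when libraries were scaled to Y-linked genes.

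Ribosomal protein genes took 2.61%, 2.67% and 2.70% of the reads of the cisplatin libraries and 2.19%, 2.08% and 2.26% of those of the PBS libraries. The groups did not overlap, and the share was 1.22 times as large with cisplatin (2.66% ± 0.045 against 2.18% ± 0.091, SD, n = 3 each). The share does not depend on how libraries are scaled to each other. As a share of TPM (transcripts per 1000000, which corrects for gene length), the values were 5.06% ± 0.061 and 4.36% ± 0.17.

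**Figure D2:**
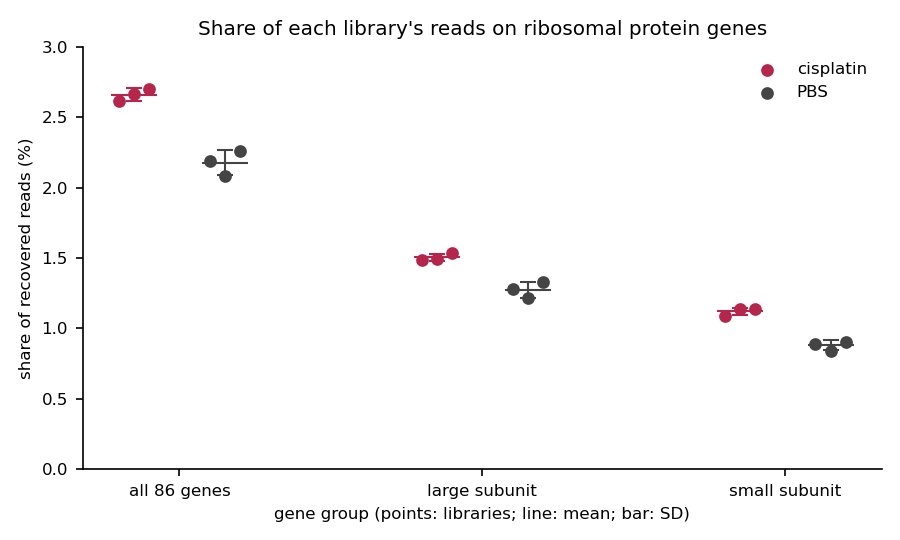
Share of each library's recovered reads (percent, axis from 0) on all 86 genes, on the 46 large subunit genes and on the 31 small subunit genes; points are libraries, lines the mean and bars the SD. Cisplatin libraries lie above PBS libraries in each group.

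Genes of both subunits were among those that rose as scaled in the deposited FPKM, and the difference between the subunits was not tested. Of the 31 small subunit genes 22 rose (71.0%, against a background of 32.9%) and 0 fell (median log2 fold change 0.34); of the 46 large subunit genes 22 rose (47.8%) and 2 fell (median 0.21). As deposited, no small subunit gene was lower at an unadjusted p under 0.05 with limma, nor with limma voom on recovered reads. On the Y-linked scale 0 rose and 26 fell in the small subunit and 0 rose and 43 fell in the large (medians -0.66 and -0.76), or 83.9% and 93.5% lower against the 82.6% of all genes. The small subunit held 1.12% ± 0.026 of reads with cisplatin and 0.88% ± 0.036 with PBS, and the large subunit 1.504% ± 0.027 and 1.27% ± 0.056.

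Rps29 and Rps27a had the largest log2 fold changes of the family. Rps29 is a small zinc-binding protein of the small subunit's head. It stood at 113, 122 and 129 FPKM in the cisplatin libraries and at 41.5, 48.9 and 68.1 in the PBS libraries. The groups lay well apart, and the log2 fold change was 1.21 ± 0.17 (SE; adjusted p = 0.00059). Rps27a is made as a fusion of ubiquitin with the ribosomal protein. Its values were 86.4, 102 and 66.6 FPKM with cisplatin and 35.2, 31.7 and 42.1 with PBS, a log2 fold change of 1.19 ± 0.16 (adjusted p = 0.00060). Both genes rose at least 2-fold also when reads on near-identical copies were added (log2 fold changes of 1.02 and 1.04), and on the Y-linked scale neither was called.

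Rps12, which lies at the head of the small subunit, was higher in every cisplatin library. It had 76.4, 78.7 and 81.9 FPKM with cisplatin and 48.1, 42.5 and 49.2 with PBS, a log2 fold change of 0.75 ± 0.062 (adjusted p = 4.1e-05). Rps3, which lines the entry of the mRNA and is also known in DNA repair, stood at 123, 136 and 133 FPKM against 103, 91.3 and 109 (0.37 ± 0.071, adjusted p = 0.0030). Rps6, the protein that S6 kinases phosphorylate, rose less, from 298, 292 and 312 FPKM with PBS to 356, 361 and 344 with cisplatin (0.23 ± 0.038, adjusted p = 0.0013). In both genes the groups were apart. Rps19, known for its mutation in Diamond-Blackfan anaemia, overlapped between the groups, with 49.8, 62.9 and 62.8 FPKM against 50.5, 42.1 and 53.8 (0.26 ± 0.12, adjusted p = 0.10). It ran from 0.15 to 0.37 without 1 library and was called without cisplatin replicate 1 (0.37, adjusted p = 0.023), with the total of recovered reads (0.34, adjusted p = 0.042), with voom (0.35, adjusted p = 0.0014) and over protein-coding genes only (adjusted p = 0.049).

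Rps3a1 had the highest FPKM of the family, 860, 801 and 795 with cisplatin and 693, 704 and 717 with PBS. It rose by a log2 fold change of 0.22 ± 0.041 (adjusted p = 0.0028). Rpsa, also known as a laminin receptor, rose by only 0.10 ± 0.033 (adjusted p = 0.033), from 275, 270 and 273 to 302, 286 and 289 FPKM, and was not called without any 1 library other than cisplatin replicate 2 (0.075 to 0.11). The call was also lost after quantile normalisation (0.051), with no filter on low values, with eBayes without a trend and in a fit with a replicate block. Rps4x, encoded on the X chromosome, had 430, 395 and 397 FPKM against 381, 396 and 370 and did not pass the test (0.090 ± 0.047, adjusted p = 0.13), though it did with the total of recovered reads (0.18, adjusted p = 0.012) and with voom (0.18, adjusted p = 0.00071). FPKM compares genes per length, and the table's lengths count every annotated exon, so genes with long rare isoforms appear lower than they are.

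The stalk of the large subunit, the arm that recruits elongation factors, consists of Rplp0 with dimers of Rplp1 and Rplp2. Rplp1 stood at 844, 873 and 862 FPKM with cisplatin and at 663, 598 and 663 with PBS, groups that lay clearly apart (0.42 ± 0.048, adjusted p = 0.00022). The anchor Rplp0 had 696, 706 and 704 FPKM against 689, 647 and 714 and overlapped (0.041 ± 0.043, adjusted p = 0.43). Rplp2 had 71.6, 89.7 and 84.0 FPKM against 69.2, 55.4 and 78.2 and also overlapped (0.28 ± 0.14, adjusted p = 0.11). Both passed with the total of recovered reads (0.13, adjusted p = 0.036, and 0.36, adjusted p = 0.0499) and with voom (0.13 and 0.37), Rplp0 also after quantile normalisation (0.096) and Rplp2 also without PBS replicate 3 (0.39, adjusted p = 0.039). The difference in change between the 3 stalk genes was not tested. Rpl4, the other gene among the 4 highest, rose from 450, 450 and 461 FPKM to 525, 491 and 500 (0.15 ± 0.036, adjusted p = 0.0073).

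Rpl5 and Rpl11 join 5S ribosomal RNA in a particle that also binds Mdm2 when ribosome assembly fails. As scaled in the deposited FPKM, the pair moved in opposite directions. Rpl5 stood at 142, 129 and 141 FPKM with cisplatin and at 148, 153 and 153 with PBS, and fell by 0.14 ± 0.045 on the log2 scale (adjusted p = 0.028), a call that was lost with the total of recovered reads (-0.052, adjusted p = 0.32) and with voom (-0.052, adjusted p = 0.26). Rpl11 stood at 95.1, 110 and 112 FPKM against 93.8, 72.8 and 90.5 and rose by 0.30 ± 0.11 (adjusted p = 0.040). In both genes the groups did not overlap, though in Rpl11 only narrowly; on the Y-linked scale both were lower. Rpl5 was not called without cisplatin replicate 2 (-0.095), PBS replicate 2 (-0.13) or PBS replicate 3 (-0.13), nor Rpl11 without cisplatin replicate 2 (0.27), cisplatin replicate 3 (0.26) or PBS replicate 2 (0.19). Neither gene was called with no filter on low values, with eBayes without a trend or in a fit with a replicate block, nor Rpl5 after a loess on gene length.

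Rpl6 and Rpl3 are proteins of the large subunit, and Rpl3 reaches close to the peptidyl transferase centre. Rpl6 had 179, 176 and 178 FPKM with cisplatin and 191, 184 and 192 with PBS, a fall by 0.087 ± 0.031 on the log2 scale (adjusted p = 0.043). Rpl3 had 196, 183 and 199 FPKM against 213, 212 and 200, with a log2 fold change of -0.11 ± 0.044 that did not pass (adjusted p = 0.056), though it did without PBS replicate 3 (-0.14), with a minimum of 5 FPKM, after quantile normalisation (-0.16), over protein-coding genes only and with copies added (-0.13). Neither gene's groups overlapped, but they lay close together. Scaled to the total of recovered reads, Rpl6 had a log2 fold change of 2.3e-05 and was not called, and without any 1 library other than PBS replicate 2 it was not called either (-0.093 to -0.075). The call of Rpl6 was also lost with voom, median-of-ratios scaling, no filter on low values, eBayes without a trend, a loess on gene length, protein-coding genes only and a replicate block. Rpl13a, a protein known for its part in silencing inflammatory mRNAs after interferon, had only 14.2, 14.4 and 16.8 FPKM against 14.2, 11.8 and 12.9 (0.21 ± 0.086, adjusted p = 0.066). It was called without PBS replicate 1 (0.27), with the total of recovered reads (0.29), after quantile normalisation (0.28), with voom (0.31), over protein-coding genes only and with copies added (0.24). The annotated gene Gm45713, listed at 0 in all libraries, overlaps Rpl13a on the same strand.

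Within the family, the change was weakly related to the length of the coding sequence and to the level. Across the 77 tested genes of both subunits, Spearman's rho between log2 fold change and coding length was -0.36, and with copies' reads added -0.35; the genes share the same 6 libraries and are not independent. The 26 shortest (141 to 408 bases) had a median log2 fold change of 0.35, the 25 of middle length 0.27, and the 26 longest (585 to 1260 bases) 0.19. Of these 16, 13 and 15 rose (61.5%, 52.0% and 57.7%, against a background of 32.9%) and 0, 0 and 2 fell (background 35.1%). Neither these shares nor the medians with copies' reads added (0.33, 0.14 and 0.19) followed length in order. With mean FPKM rho was -0.33, and -0.18 with copies' reads added, against 0.095 in protein-coding genes outside the family. With the table's gene length in place of coding length rho was -0.15 in the family, and over the 11253 tested protein-coding genes outside it -0.053. Rpl41, whose product is the shortest of the family, had 348, 379 and 402 FPKM against 267, 247 and 292 (0.49 ± 0.076, adjusted p = 0.0011), named after its values were seen. Rpl39 is nearly as short and overlapped, with 107, 94.4 and 110 FPKM against 93.2, 96.2 and 114 (0.043 ± 0.090, adjusted p = 0.70).

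Some paralogs can replace the usual protein, and 4 of the 8 were tested for a change in RNA. Whether a paralog took the place of the usual protein was not tested. Rps27l, which p53 is known to induce, stood at 97.8, 103 and 100.3 FPKM with cisplatin and at 58.1, 58.4 and 55.2 with PBS. The groups were far apart, and as deposited Rps27l rose by 0.80 ± 0.038 (adjusted p = 2.9e-06), with the smallest adjusted p of the family; on the Y-linked scale the value was -0.18. Its part of the FPKM of Rps27 and Rps27l overlapped between the groups (54.0% ± 10.2 against 55.1% ± 9.5), with reads of Rps27rt left out. No near-identical copy of it was found.

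Rpl22 is known to repress the expression of its paralog Rpl22l1. Rpl22l1 stood at 12.6, 11.3 and 12.7 FPKM with cisplatin and at 15.5, 14.2 and 13.8 with PBS and fell by 0.23 ± 0.064 on the log2 scale (adjusted p = 0.015). The call was lost with the total of recovered reads (-0.15, adjusted p = 0.080), with voom (-0.16, adjusted p = 0.099) and after quantile normalisation (-0.15, adjusted p = 0.076). Rpl22 moved the other way, from 51.7, 50.6 and 56.4 to 60.3, 63.0 and 61.5 FPKM (0.22 ± 0.048, adjusted p = 0.0059), as deposited; on the Y-linked scale both were lower. Within a library, and so on any scale, Rpl22l1 made up 17.3%, 15.2% and 17.1% of the pair's FPKM with cisplatin and 23.0%, 21.9% and 19.7% with PBS. The shares did not overlap (16.6% ± 1.2 against 21.5% ± 1.7, SD, n = 3).

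Rpl7l1, which acts in the assembly of the large subunit, rose from 27.4, 25.7 and 27.7 FPKM to 38.9, 41.1 and 38.3 (0.54 ± 0.045, adjusted p = 4.9e-05). Rpl7 itself overlapped, with 249, 219 and 221 FPKM against 222, 242 and 237 (-0.026 ± 0.060, adjusted p = 0.72). Rpl7l1 was therefore a larger part of the pair's FPKM in every cisplatin library (14.7% ± 1.1 against 10.3% ± 0.69).

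The remaining pairs were nearly pure. Rpl10l was listed at 0 in all 6 libraries, while Rpl10 rose from 232, 219 and 234 to 266, 281 and 283 FPKM (0.28 ± 0.041, adjusted p = 0.00089). Rpl39l, Rpl3l and Rpl36al reached at most 0.14, 0.74 and 1.39 FPKM. Rpl36a had 56.0, 61.7 and 67.4 FPKM against 53.2, 52.0 and 61.8 and overlapped (0.15 ± 0.088, adjusted p = 0.18), though it was called with voom (0.24, adjusted p = 0.0067). Rps19bp1, which binds Rps19 and activates Sirt1, stood at 23.2, 25.1 and 24.3 FPKM against 15.1, 13.04 and 16.8 and rose by 0.67 ± 0.087 (adjusted p = 0.00044).

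Rps27 itself varied more than 2-fold within each group, and the groups overlapped. It had 51.7, 99.6 and 119 FPKM in the cisplatin libraries and 73.1, 35.1 and 39.2 in the PBS libraries, a log2 fold change of 0.85 ± 0.38 (adjusted p = 0.081). Without 1 library this ran from 0.61 to 1.21, and it was called without cisplatin replicate 1 (1.21, adjusted p = 0.017) or PBS replicate 1 (1.17, adjusted p = 0.027), with voom (0.93, adjusted p = 0.0030) and over protein-coding genes only (adjusted p = 0.032). Its retrocopy Rps27rt had 331, 165 and 115 FPKM against 101, 265 and 272 (-0.076 ± 0.50, adjusted p = 0.90). The 3 libraries with the least Rps27 were the 3 with the most Rps27rt. Their sum was steadier, at 184, 172 and 174 reads per 1000000 recovered reads (RPM) with cisplatin and at 113, 132 and 139 RPM with PBS, without overlap. With the reads of Rps27rt added to it, an alternative chosen after the data had been seen, Rps27 had a log2 fold change of 0.38 ± 0.083 (adjusted p = 0.0051).

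**Figure D3:**
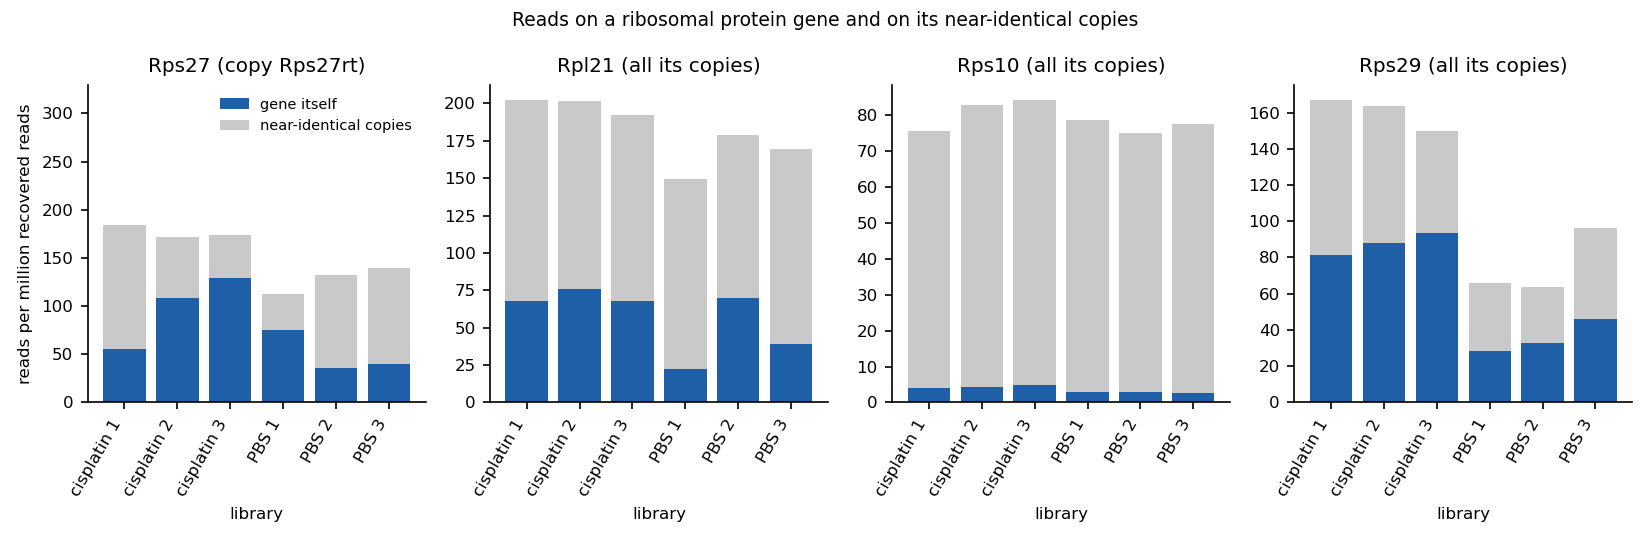
Reads per 1000000 recovered reads (RPM) on Rps27, Rpl21, Rps10 and Rps29 (blue) and on their near-identical copies (grey) in each library; bars start at 0. The split of Rps27 with Rps27rt changes from library to library while the sum lies at 172 to 184 with cisplatin and 113 to 139 with PBS.

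Other genes also shared reads with copies. Transcripts of 560 genes matched a member's coding sequence over at least 50% of its length at 95% identity or more; 429 of them had reads, and 78 members had at least 1 such copy. The copies held 7.36% to 8.50% of the reads on members and copies together. Rps27rt, itself a member, is not among these copies. Most members were little touched, as 58 of the 86 held over 90% of the reads of their own family. Those that held under 50% were Rps10 (4.5%), Rpl24 (27%), Rpl21 (31%), Rpl17 (34%) and Rpl10l, which is listed at 0.

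Rps10 is another protein of the small subunit's head. It had 1.65, 1.74 and 2.02 FPKM against 1.25, 1.28 and 1.12 and rose on these values (0.34 ± 0.090, adjusted p = 0.013; not called without cisplatin replicate 3, 0.29), while the copy Rps10-ps2 on chromosome 16 took most of the family's reads. The lines below give bases 381 to 440 of the longest annotated Rps10 coding sequence, the stretch that holds all 4 mismatches found in 456 aligned bases, with those of the copy in capitals.
Rps10: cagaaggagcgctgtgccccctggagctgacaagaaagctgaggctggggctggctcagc
Rps10-ps2: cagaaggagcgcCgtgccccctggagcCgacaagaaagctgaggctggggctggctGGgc

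With copies' reads added, Rps10 had a log2 fold change of -0.017 (adjusted p = 0.77). The family's reads came to 75.7, 82.9 and 84.4 RPM with cisplatin and 78.7, 75.1 and 77.5 with PBS, which overlap. Rps10 also overlaps the annotated gene RPS10-NUDT3 on its own strand, listed at 0 in all libraries.

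Rpl21 had the most copies, 55, the main one being Rpl21-ps15 on the X chromosome (3 mismatches in 483 bases). The gene alone had 19.3, 21.4 and 19.1 FPKM against 6.73, 21.1 and 11.9, a log2 fold change of 0.68 ± 0.34 (adjusted p = 0.12), and with copies 0.17 (adjusted p = 0.066). Without 1 library the gene alone ran from 0.31 to 1.07, and it was called without PBS replicate 2 (1.07, adjusted p = 0.0057) and with voom (0.85, adjusted p = 0.0019). Rpl17 had the lowest log2 fold change of the family, -0.33 ± 0.21 (adjusted p = 0.21), at 99.0, 126 and 175 FPKM against 175, 135 and 183; with copies it was -0.049 (adjusted p = 0.45). Without 1 library Rpl17 alone ran from -0.54 to -0.13, and it was called lower without cisplatin replicate 3 (-0.54, adjusted p = 0.027). Rpl24 went from 0.43 to 0.079, and neither value passed the test.

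For Rps29 the copy Gm14303 is identical over all 171 coding bases. Rps29 and its copies together held 167, 164 and 150 RPM with cisplatin and 65.8, 63.6 and 96.6 with PBS, so the rise of Rps29 was seen in the sum as well. Over the whole family 51 of the 82 genes tested with copies added rose and 3 fell (median 0.24), where 33.2% and 35.6% of the 13281 genes of that fit did so. These 82 include Rpl36al, which passed the filter only with copies added and rose (0.44, adjusted p = 0.027), and not Rps27rt, whose reads were added to Rps27. The 3 that fell were then Rpl22l1, Rpl5 and Rpl3, and Rpl6 was not called (-0.022, adjusted p = 0.64).

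**Figure D4:**
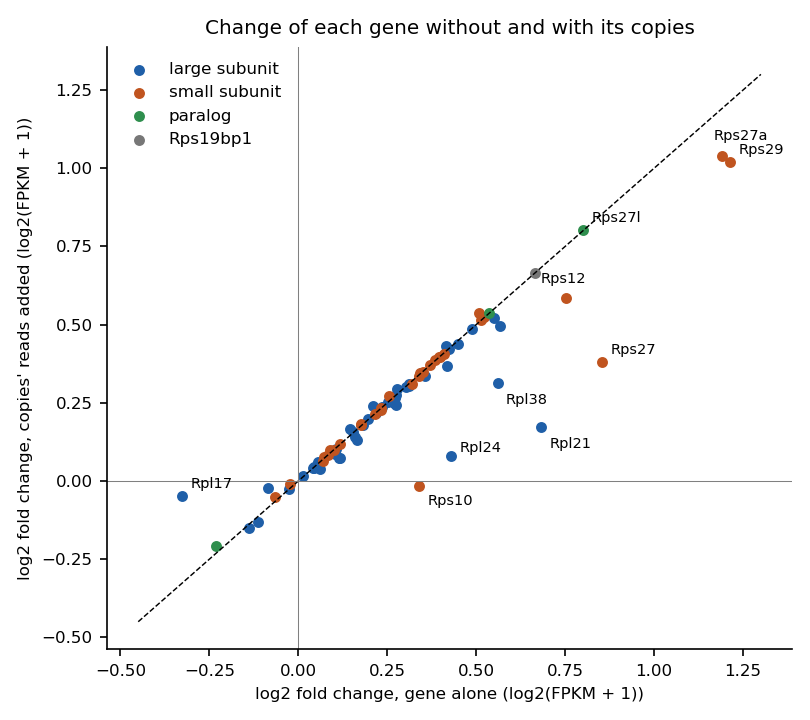
Log2 fold change of each gene alone (x axis) and with the reads of its near-identical copies added (y axis), both on log2(FPKM + 1) as scaled in the deposited table; the dashed line marks equal values. Most genes lie on the line, and Rpl21, Rps10, Rpl24, Rps27 and Rpl17 lie closer to 0 with copies added.

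The start sites were compared with RefSeq windows of 300 bases (250 before the start), which were at hand for 66 of the 86 genes in 78 windows. A run of at least 5 C or T bases that begins with C exactly at the annotated start was present in 14 of the 78 (17.9%) and in 2.51% of all 32851 windows. Rps27, Rps27rt, Rpl38, Rps6, Rps10 and Rplp2 were among those with the run, whereas the annotated start of Rps27l is followed by GCC and that of Rps12 by ACC. A run that begins away from the annotated base was not counted, as in Rps12, whose window holds a run of C and T further downstream. The 52 genes without the run at that base need not lack a TOP motif. The median log2 fold change was 0.29 for the 14 genes with the run, all of them tested, and 0.25 for the 48 tested of the 52 without. CGGAAG on either strand, which CCGGAAG contains, was present in 60.3% of the family's windows and 16.9% of all, and CCGGAAG in 34.6% and 8.86%. GCCATC was present in 23.1% and 14.1%, and TATAAA in 8.97% and 13.6%. Tested genes with CGGAAG had a median log2 fold change of 0.28 and those without 0.23. A match is a description of these letters and not evidence of binding.

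Fau and Rack1, which the symbol rule does not reach, were not among the genes that rose. Fau, made as a fusion of a ubiquitin-like protein with Rps30, stood at 319, 400 and 393 FPKM with cisplatin and at 484, 406 and 516 with PBS. The groups lay just apart, and Fau fell by 0.34 ± 0.12 on the log2 scale (adjusted p = 0.037). The call was lost with the total of recovered reads (-0.25, adjusted p = 0.10) and without cisplatin replicate 1 (-0.23), PBS replicate 1 (-0.31) or PBS replicate 3 (-0.27). It was also lost with no filter on low values, with eBayes without a trend and in a fit with a replicate block. Rack1, a signalling scaffold on the small subunit, had 136, 134 and 133 FPKM against 138, 133 and 135 (-0.011 ± 0.030, adjusted p = 0.75).

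Genes that build ribosomes were higher too as scaled in the deposited FPKM, whereas on the Y-linked scale 13 rose and 51 fell (median -0.24), against backgrounds of 3.71% and 82.6%. In a list of ribosome biogenesis factors 87 of 99 tested genes rose (87.9%, background 32.9%) and 4 fell, and the median log2 fold change was 0.66, against 0.25 for the ribosomal proteins and -0.0011 for all genes; the difference between the lists was not tested. Heatr1, a factor of the small subunit processome, stood at 28.4, 27.8 and 26.6 FPKM with cisplatin and at 8.64, 9.60 and 8.77 with PBS (1.52 ± 0.052, adjusted p = 6.7e-07). Utp20 of the same complex had 14.3, 14.1 and 14.4 FPKM against 4.47, 4.26 and 4.67 (1.48 ± 0.048, adjusted p = 5.0e-07). Both were about 3 times as high with cisplatin, a larger change than that of any ribosomal protein gene.

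Of 15 genes of RNA polymerase I, which transcribes ribosomal RNA, 7 rose (46.7%, background 32.9%) and 1 fell (6.67%, background 35.1%), with a median of 0.23, whereas on the Y-linked scale 0 rose and 13 fell (median -0.63), the latter 86.7% against 82.6% of all genes. Polr1b, its second largest subunit, rose by 0.82 ± 0.064 (adjusted p = 3.4e-05) and Taf1c of its initiation factor by 0.71 ± 0.070 (adjusted p = 0.00011). Of 77 tested mitochondrial ribosomal protein genes 40 rose (51.9%, background 32.9%) and 10 fell (background 35.1%), with a median of 0.23, close to that of the cytosolic genes. On the Y-linked scale 0 of them rose and 73 fell (median -0.66), as did 3.71% and 82.6% of all genes. Mrpl14 fell by 1.08 ± 0.14 on the log2 scale (adjusted p = 0.00046) and Mrpl20 rose by 0.92 ± 0.10 (adjusted p = 0.00020), the widest changes of that list.

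**Figure D5:**
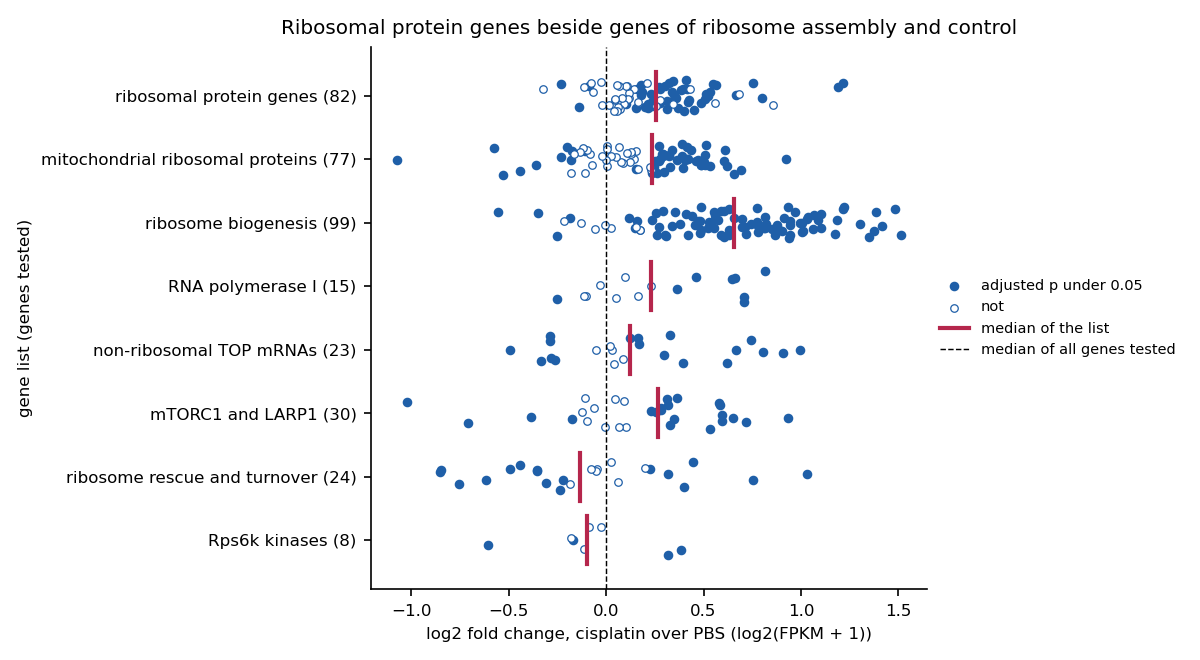
Log2 fold change (cisplatin over PBS, on log2(FPKM + 1), as scaled in the deposited table) of each tested gene in 8 lists; filled points passed an adjusted p of 0.05, red lines are medians and the dashed line the median of all genes tested. Ribosome biogenesis lies furthest right (median 0.66), ahead of the cytosolic (0.25) and mitochondrial (0.23) ribosomal proteins; on the Y-linked scale these 3 medians were -0.24, -0.72 and -0.66.

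Other mRNAs with a TOP motif are mostly of translation factors. Of 23 such genes 12 rose (52.2%, background 32.9%) and 6 fell (26.1%, background 35.1%), with a median of 0.12. On the Y-linked scale 0 of them rose and 19 fell (median -0.86), the latter 82.6% as among all genes. Pabpc4, a poly(A)-binding protein, rose by 0.99 ± 0.043 (adjusted p = 2.0e-06), and Snhg1, a noncoding host of small nucleolar RNAs, rose by 0.91 ± 0.058 (adjusted p = 1.2e-05). Eif3h fell by 0.49 ± 0.037 on the log2 scale (adjusted p = 2.5e-05). In a list of mTORC1 components, its regulators and targets, La-related proteins, initiation factors and 4 genes of the Myc network (Myc, Max, Mxd1 and Mnt), 17 of 30 rose (56.7%, background 32.9%) and 4 fell (13.3%, background 35.1%), whereas on the Y-linked scale 0 rose and 28 fell (93.3%, background 82.6%). Eif4g2, a translation initiation factor, rose by 0.94 ± 0.044 (adjusted p = 2.9e-06), and Deptor, an inhibitor of mTOR, fell by 1.02 ± 0.057 on the log2 scale (adjusted p = 6.2e-06). Larp1 had a log2 fold change of 0.048 ± 0.035 (adjusted p = 0.27) and was called with the total of recovered reads (0.13), with voom (0.14) and after quantile normalisation (0.12).

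Of the 8 tested Rps6k kinases that the rule left out 2 were higher and 2 lower, shares below the backgrounds of 32.9% and 35.1% (0 and 8 on the Y-linked scale, on which 82.6% of all genes were lower). Rps6kb1, the S6 kinase that acts below mTORC1, rose by 0.39 ± 0.048 (adjusted p = 0.00033), and Rps6ka4 fell by 0.61 ± 0.042 on the log2 scale (adjusted p = 1.8e-05). Of 24 genes of ribosome rescue and turnover 6 were higher and 11 lower, 45.8% of them lower against a background of 35.1%, with a median of -0.13 (0 higher, 23 lower and a median of -1.05 on the Y-linked scale). Zfand2a, a proteasome-associated stress protein, rose by 1.03 ± 0.039 (adjusted p = 9.9e-07). Ube2o, which marks unassembled ribosomal proteins with ubiquitin, fell by 0.85 ± 0.059 on the log2 scale (adjusted p = 1.7e-05).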

How the data were processed

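Poly-T selected RNA of 6 libraries was analysed from a deposited table of FPKM values per gene, which the authors made from reads trimmed with fastp, aligned to mm10 with HISAT2 2.0.5 and counted with featureCounts 1.5.0-p3 according to the submitters' processing notes. The study's methods instead name LifeScope for alignment and counting. Strand use and the handling of reads with several matches are not given in the sources used here. Groups came from the sample labels.

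Genes with at least 1 FPKM in at least 3 of 6 libraries (13441) were tested on log2(FPKM + 1), with a pseudocount of 1, by limma 3.58.1 (lmFit and eBayes with a trend, R 4.3.3), with the group as the only term and Benjamini-Hochberg adjustment over all genes tested. Genes with an adjusted p under 0.05 were called; the study's added threshold of a 2-fold change is counted apart. Fold changes on this scale understate those of genes with low values. The code was tested on simulated data. Divided by the worth of 1 read, 100% of low FPKM values were whole reads within 0.001, which gave the reads behind each value. Counting error is small for most members at these depths. It is not small for Rpl24, the tested member with the fewest reads (mean 28.7, and 8 in PBS replicate 3), or for Rps10 (mean 57.5).

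The members and lists were chosen with earlier results of these data known. Genes named were the paralogs and their partners, the stalk genes and Rpsa, 6 genes with roles outside the ribosome, the 5 highest and 5 lowest log2 fold changes among members with a mean of at least 5 FPKM, the 4 highest levels, each member past 2-fold, Fau, Rack1 and the 2 called genes with the largest change in each other list; those named for copies, length or the start site, Eif3h and Larp1 were chosen after their values were seen. Copies were sought with BLAST 2.17.0+ among GENCODE M21 transcripts, and aligned with Biopython 1.88.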

Additional observations from a re-analysis of the deposited data

How the results depend on the processing

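Of 19 other settings, all but the Y-linked scaling left more than 30 ribosomal protein genes higher at an adjusted p under 0.05. The number that rose was 47 as reported and 32 to 53 with median-of-ratios scaling, quantile normalisation, TPM, a pseudocount of 0.1, a minimum of 5 FPKM or none, eBayes without a trend, a loess on gene length or protein-coding genes only, 66 with the total of recovered reads, 70 with limma voom, 51 with copies merged (added after the data were seen) and 33 to 51 without 1 library. The number that fell was 3 as reported, 4 with a minimum of 5 FPKM (Rpl3 added), 2 with median-of-ratios scaling, 1 with no filter, eBayes without a trend or the loess, 0 with the total of recovered reads or voom, and 1 to 3 without 1 library (1 without cisplatin replicate 2). The median log2 fold change of the family, the large and the small subunit became 0.34, 0.30 and 0.41 with the total of recovered reads and 0.34, 0.31 and 0.43 with voom; without 1 library these were 0.20 to 0.28, 0.15 to 0.25 and 0.29 to 0.37. The difference in the share of reads was 0.48 percentage points, 0.70 as a share of TPM and 0.43 to 0.53 without 1 library.

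On the Y-linked scale 0 genes rose and 72 fell, 0 rose and 8 fell at least 2-fold, and the 3 medians were -0.72, -0.76 and -0.66. On that scale 2 of the 82 genes were above 0, against 73 as reported; among the genes named in the text, the sign changed in Rpl10 (-0.72), Rpl11 (-0.68), Rpl13a (-0.72), Rpl22 (-0.76), Rpl36a (-0.84), Rpl39 (-0.95), Rpl4 (-0.84), Rpl7l1 (-0.43), Rplp0 (-0.96), Rplp1 (-0.57), Rplp2 (-0.71), Rps12 (-0.23), Rps19 (-0.72), Rps19bp1 (-0.28), Rps27 (-0.13), Rps27l (-0.18), Rps3 (-0.62), Rps3a1 (-0.78), Rps4x (-0.91), Rps6 (-0.76), Rpsa (-0.90), Rpl21 (-0.25), Rpl24 (-0.16), Rpl38 (-0.43), Rpl41 (-0.51) and Rps10 (-0.25; -0.017 with copies merged), and outside the family in Eif4g2 (-0.054), Larp1 (-0.93), Mrpl20 (-0.014), Polr1b (-0.037), Rps6kb1 (-0.53), Snhg1 (-0.011) and Taf1c (-0.12). Under other settings it changed sign in Rpl6 (2.3e-05 with the total of recovered reads, 3.9e-05 with voom), Rpl7 (0.060 and 0.062; -0.086 to 0.0066 without 1 library), Rps27rt (0.011 and 0.040; -0.54 to 0.26 without 1 library), Rack1 (0.075 and 0.075; 0.033 with the loess and 0.0016 with median-of-ratios; -0.023 to 0.00056 without 1 library) and Rpl39 (-0.012 to 0.13 without 1 library), none of which had a log2 fold change past the test in the reported fit except Rpl6. Their cause was not tested.

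In a fit with a replicate block, 46 genes rose and 1 fell. The numbers did not pair the libraries: the deviations of same-numbered libraries from their group means correlated at -0.10, -0.086 and -0.024. At 3 libraries a group and 15776238 to 17924686 reads each, counting error is small for most of these genes, but not for Rpl24 and Rps10. Reads shared with near-identical copies limit Rps27, Rps10, Rpl21, Rpl24 and Rpl17 most.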
